A study of Mus musculus with 6 samples.

Results

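Aldehyde dehydrogenases and aldo-keto reductases are the enzymes that oxidise or reduce aldehydes and ketones, and 34 of the 18193 genes measured on the arrays belonged to them. They were the genes whose symbol in the array's annotation begins with Aldh, Akr1 or Akr7, with Aldh3a1 left out, each read by the single-gene probe set of highest mean. Of the 34, 19 were aldehyde dehydrogenases and 15 aldo-keto reductases. RNA came from pancreatic islets isolated from male CD1 mice aged 8 weeks, rested overnight in culture and then treated for 24 hours. One group of 3 arrays received vehicle (0.1% ethanol) and the other 3 received 200 uM CMPF, a furan dicarboxylic acid that circulates in plasma. The labels name no transgene or deletion, and do not say whether numbered samples came from separate animals or were pooled. The comparison asks which enzymes of aldehyde metabolism differed in islets with CMPF.

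Aldehydes arise when lipids are peroxidised, when alcohols, amines and retinol are oxidised and when amino acids are broken down. Aldehyde dehydrogenases oxidise them to carboxylic acids with NAD or NADP, and aldo-keto reductases reduce them, and many ketosteroids, to alcohols with NADPH. In the pancreas the retinaldehyde dehydrogenases make retinoic acid, a signal of endocrine development, and several aldo-keto reductase genes are known targets of the oxidant sensor NRF2.

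No member passed the threshold of an adjusted p of 0.05 in either direction, and the difference between CMPF and vehicle was small for most of them. Limma called 0 of 34 members (smallest adjusted p = 0.99995), where it called 0% of all genes. At an unadjusted limma p under 0.05 the count was also 0 of 34 members, where 0.731% of all genes passed with CMPF higher and 0.396% with CMPF lower. With the replicate number as a block, limma called 0 of 34 (smallest adjusted p = 0.979). At an unadjusted p under 0.05 it then held 3 members higher with CMPF, against 2.52% of all genes, and 1 lower, against 1.28%. These were Aldh1a1, Aldh1a7 and Akr1b8 on the higher side and Aldh1b1 on the lower side. The median difference, CMPF minus vehicle in log2 units, was 0.018 over the members and 0.0018 over all genes, and 20 of 34 differences were above 0 (50.7% over all genes). A difference of at least 0.2 log2 units in either direction was found for 6 members, against 7.99% of all genes. These were Aldh1a1, Aldh1a7, Akr1b8 and Aldh1l1 above 0 and Aldh1a2 and Aldh1b1 below it. In bulk RNA, fewer cells of a type and less RNA per cell cannot be told apart.

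Arrays of the same replicate number deviated together and are called a pair below. In all 3 pairs 10 members were higher with CMPF, beside 11.8% of all genes, and 4 were lower, beside 11.1%. The 10 were Aldh1a1, Aldh1a7, Aldh2, Aldh7a1, Aldh16a1, Akr1b8, Akr1b10, Akr1e1, Akr7a5 and Akr1c21. The 4 were Aldh1b1, Aldh1l2, Aldh6a1 and Akr1c12. Both counts rest on the brightest probe set of each gene. A dimmer set of Aldh16a1, at a mean of 6.01, had pair 3 at -0.13. A dimmer set of Aldh7a1, at a mean of 5.09, had pairs 1 and 3 at -0.035 and -0.072. Akr1c21 was dim, at a mean of 3.71. The groups themselves overlapped for each of the 34 members, where 2.41% of all genes did not overlap with CMPF higher and 2.11% did not with CMPF lower. The median over the members was 0.12 in pair 1, -0.044 in pair 2 and 0.025 in pair 3, so the pairs did not share a sign.

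**Figure D1:**
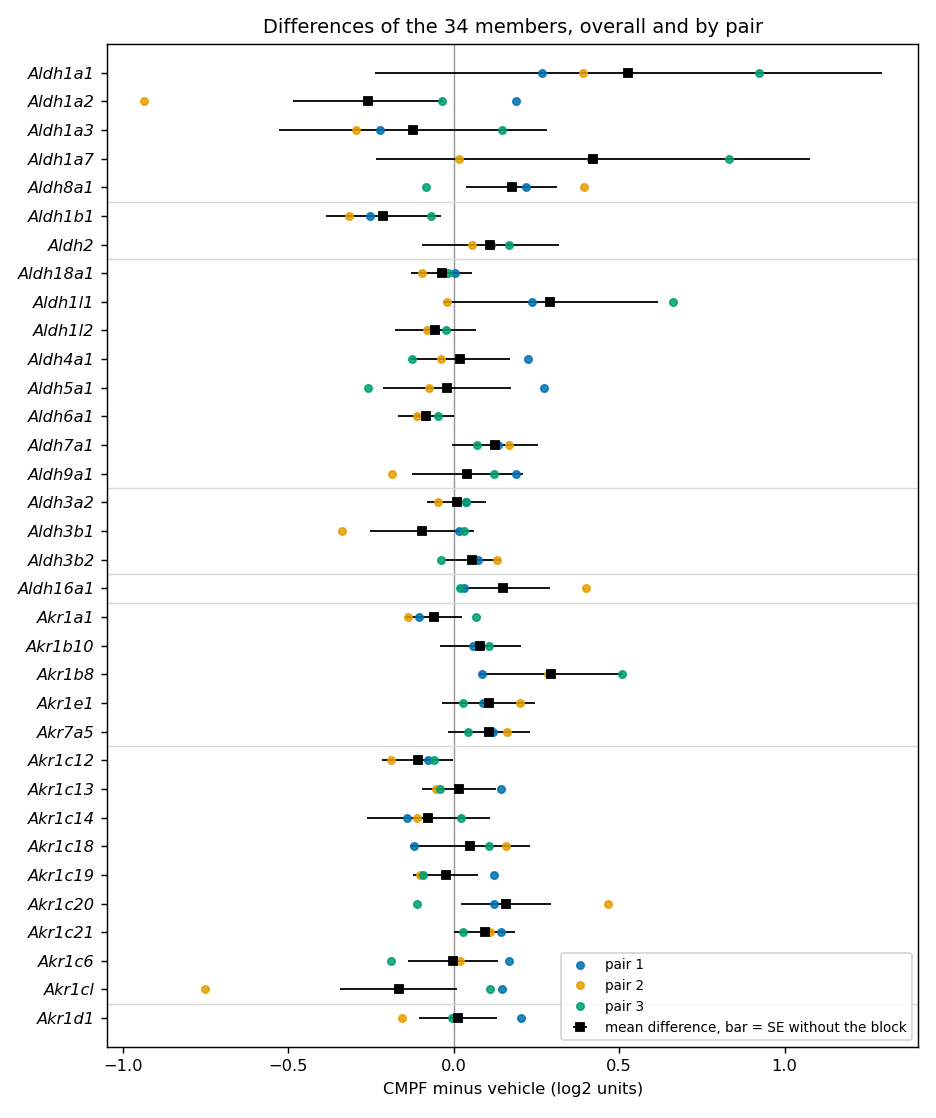
Difference between CMPF and vehicle (x axis, log2 units) for each of the 34 members (y axis, grouped by role). Squares are the mean difference with its standard error from the fit without the replicate block, and coloured points are the 3 pairs. Aldh1a1 has the highest mean at 0.53 and the longest error bar, and Aldh1a2 the lowest at -0.26.

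The annotation covers 8 of the 10 islet hormone and granule markers listed for the check of tissue. Their mean log2 level lay between 13.3 and 13.5 on the 6 arrays, and Ins2, insulin, read 14.69 ± 0.07 (SD, n = 3) with vehicle. Markers of the exocrine acinar cells, which secrete digestive enzymes, were also bright. The 17 acinar markers measured had mean log2 levels of 11.35, 12.47 and 10.35 on vehicle arrays 1, 2 and 3 and 11.63, 12.53 and 11.32 on CMPF arrays 1, 2 and 3. The log2 of their summed signal ranged from 15.44 to 17.09 with vehicle and from 16.22 to 17.16 with CMPF. None of the 17 was near the floor, the dimmest having a mean of 8.11. In all 3 pairs 13 of 17 were higher with CMPF, beside 11.8% of all genes.

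Among the retinaldehyde dehydrogenases Aldh1a1, Aldh1a7 and Aldh1a3 had the widest spread between pairs of all 34 members, while Aldh1a2 and Aldh8a1 did not stand out. Aldh1a1, a cytosolic enzyme that oxidises retinaldehyde and lipid aldehydes, read 6.96, 8.05 and 5.29 on vehicle arrays 1, 2 and 3. On CMPF arrays 1, 2 and 3 it read 7.23, 8.44 and 6.21. Arrays numbered 2 were highest and arrays numbered 3 lowest in both groups, and CMPF was higher within each pair although the groups overlapped. Vehicle arrays averaged 6.77 ± 1.39 (SD, n = 3), and CMPF arrays averaged 7.29 ± 1.12 (SD, n = 3). The difference of 0.53 (SE 0.767) had a 95% interval from -1.27 to 2.33, and limma's adjusted p was 0.99995. With the replicate block its standard error was 0.136 and the adjusted p 0.979. The sign turned when either of 2 arrays was left out, to -0.21 without vehicle 3 and to -0.047 without CMPF 2. It was 1.17 without vehicle 2 and 1.07 without CMPF 3. Without the whole of pair 1, 2 or 3 it was 0.66, 0.60 and 0.33. These values could not fall below 0, since the difference was above 0 in each pair.

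Aldh1a7, a rodent gene closely related to Aldh1a1 and next to it on chromosome 19, read 4.56, 5.97 and 3.45 on vehicle arrays 1 to 3 and 4.98, 5.98 and 4.28 on CMPF arrays 1 to 3. Its arrays ran in the same order as those of Aldh1a1. Its mean of 4.87 was below the median gene (6.42), and both arrays numbered 3 read below the lower quartile of gene levels (4.53). The difference was 0.42 (SE 0.657, or 0.153 with the block), and by pair it was 0.42, 0.014 and 0.83. It was -0.19 without vehicle 3 and -0.031 without CMPF 2, against 1.07 without vehicle 2 and 0.82 without CMPF 3. Without a whole pair it lay between 0.21 and 0.62, and could not fall below 0, since each pair was above 0. The sources do not say whether the probes of either gene also bind the transcript of the other, so these may not be independent readings.

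Both genes ordered the 6 arrays exactly as the mean of the acinar markers did, CMPF 2 highest, followed by vehicle 2, CMPF 1, vehicle 1, CMPF 3 and vehicle 3. Aldh7a1 was the only other member with that order, so 3 of 34 members had it. It was shared by 0.86% of the 18142 genes that are neither members nor listed acinar markers, and by 8 of the 17 acinar markers. This order was looked at after the values were seen, and the part of the acinar RNA in the differences was not tested.

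The promoters of both genes are shown because their signals moved together, with the 250 bases before the annotated start, from RefSeq on GRCm38.p6. Aldh1a1 lies at chr19:20601718-20601967 on the plus strand and Aldh1a7 at chr19:20727557-20727806 on the minus strand. RefSeq lists another start for Aldh1a1, and the one shown is the more alike of them to Aldh1a7. Capitals mark the CCAAT and TATAAA motifs found on either strand.
Aldh1a1: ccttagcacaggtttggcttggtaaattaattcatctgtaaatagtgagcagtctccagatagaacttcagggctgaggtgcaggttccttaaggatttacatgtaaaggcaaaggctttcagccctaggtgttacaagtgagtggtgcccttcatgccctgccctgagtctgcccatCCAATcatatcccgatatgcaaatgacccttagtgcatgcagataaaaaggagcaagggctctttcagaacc
Aldh1a7: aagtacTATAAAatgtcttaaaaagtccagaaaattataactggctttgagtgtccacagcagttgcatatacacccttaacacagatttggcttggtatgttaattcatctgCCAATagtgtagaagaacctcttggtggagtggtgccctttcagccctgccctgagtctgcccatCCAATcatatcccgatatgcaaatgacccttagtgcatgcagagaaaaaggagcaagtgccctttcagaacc
In windows of 300 bases, which run 50 bases past the start, 224 of 282 aligned bases were identical (79.4%), against 65.3% for the other Aldh1a1 start. The longest identical run in the printed bases held 65 bases from position 157 in both, counted from the 5′ end, and it holds a CCAAT motif at position 179. CCAAT occurred in 37.4% of all 32851 promoter windows and in 17 of the 30 windows of members, which covered 28 genes. TATAAA occurred in 13.6% of all windows and in 3 of the 30. The antioxidant response element core TGACNNNGC, where NRF2 binds, occurred in 12.4% of all windows. It was in 4 of the 30, those of Akr1c19, Akr1cl, Aldh1a2 and Aldh9a1, and in neither of the sequences above.

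Aldh1a3, which makes retinoic acid and is known to mark beta cells that lose their identity, ran otherwise. It read 7.04, 6.90 and 7.88 on vehicle arrays 1 to 3 and 6.82, 6.60 and 8.02 on CMPF arrays 1 to 3, highest on the arrays numbered 3. Its difference was -0.12 (SE 0.406, or 0.107 with the block). Its 3 probe sets did not share a sign. The second, nearly as bright at a mean of 7.11 against 7.21, differed by -0.33 and was lower with CMPF in every pair, at -0.47, -0.46 and -0.077. The third, dimmer at 5.62, differed by 0.092. The mean of 12 stellate and fibroblast markers was also highest on the arrays numbered 3, at 8.95 with vehicle and 9.23 with CMPF against 8.10 to 8.63 on the other arrays, and its part was not tested. Aldh1a3 was described after its values were seen, as were Aldh1a2, Aldh1l1 and the members given below with pair values only.

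Aldh1a2, the retinaldehyde dehydrogenase known from mesenchyme of the developing embryo, was dimmer than the median gene (6.42). It read 5.07, 5.64 and 5.52 with vehicle and 5.26, 4.71 and 5.48 with CMPF, and only CMPF 2 stood apart. By pair its difference was 0.19, -0.94 and -0.034, and over all arrays -0.26 (SE 0.227). Aldh8a1, whose substrates include retinaldehyde, differed by 0.18 (SE 0.138), with 1 pair below 0. Over these 5 genes the median difference was 0.18, with 3 above 0 and 2 below.

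**Figure D2:**
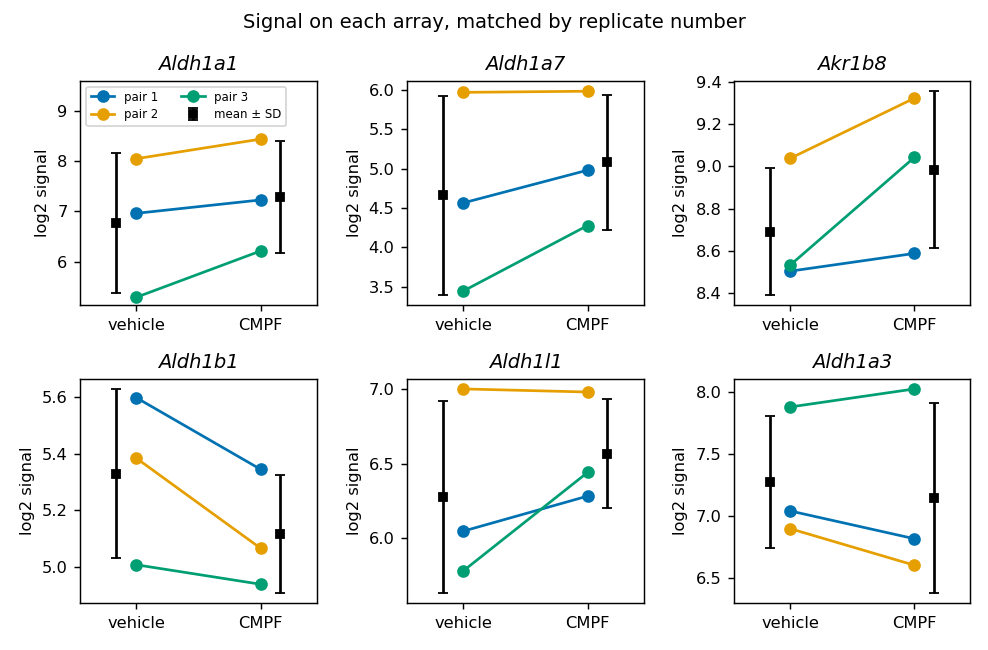
Log2 signal (y axis) of 6 members on the vehicle and CMPF arrays (x axis). Lines join arrays of the same replicate number, and squares with bars are the group mean and SD of 3 arrays. The lines of Aldh1a1 and Aldh1a7 lie far apart and slope upward, while those of Aldh1b1 slope downward.

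The spread between pairs exceeded the difference for nearly all members. The range of the 3 pair means was larger than the size of the difference for 32 of 34 members, all but Akr1a1 and Akr1cl, and for 87.5% of all genes. Its median was 0.32 over the members and 0.21 over all genes. The range reached 1 log2 unit or more for Aldh1a1 (2.50), Aldh1a7 (2.11) and Aldh1a3 (1.20), or 8.82% of members against 2.06% of all genes. The fit with the block takes up that spread. It gave a smaller standard error for each member except Akr1cl, and the median fell from 0.139 to 0.0868, where over all genes it fell from 0.116 to 0.0877.

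**Figure D3:**
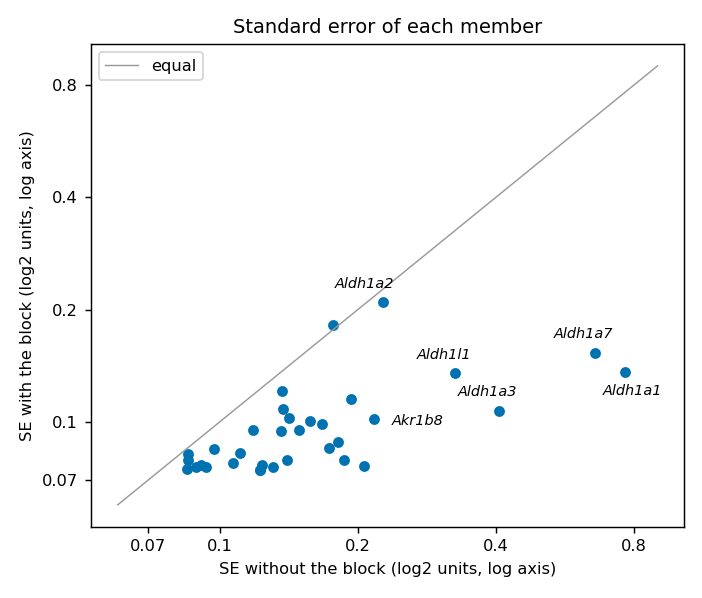
Standard error of the difference (log2 units, log axes) without the replicate block (x axis) and with it (y axis), 1 point per member. Aldh1a1 and Aldh1a7 lie farthest below the line of equal errors, at 0.767 against 0.136 and 0.657 against 0.153.

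The mitochondrial enzymes that clear acetaldehyde and lipid aldehydes differed in opposite directions. Aldh2, the main enzyme of acetaldehyde oxidation, read 7.46, 7.96 and 7.30 with vehicle and 7.58, 8.01 and 7.46 with CMPF, a difference of 0.11 (SE 0.206). It was higher within each pair, by 0.054 to 0.17. Its other 4 probe sets were dim, with means from 3.17 to 3.82. Aldh1b1, a related mitochondrial enzyme known from duct-like progenitor cells of the pancreas, read 5.60, 5.38 and 5.01 with vehicle. With CMPF it read 5.34, 5.07 and 4.94. It was lower within each pair, by differences of -0.25, -0.32 and -0.069, while the groups overlapped. Vehicle arrays averaged 5.33 ± 0.30 (SD, n = 3) and CMPF arrays 5.12 ± 0.21 (SD, n = 3). The difference was -0.21 (SE 0.173, or 0.0853 with the block; limma adjusted p = 0.99995 and 0.979). Its probe set was dimmer than that of the median gene. The mean of 10 duct markers was lower with CMPF in pairs 1 and 2, at 7.97 against 8.26 and 8.55 against 8.87. It was higher in pair 3, at 8.24 against 7.99. The markers did not move as a set, with 5 differences above 0 and 5 below. Their median was -0.13 in pair 1, 0.0094 in pair 2 and 0.28 in pair 3. The largest falls in pair 2 were those of Car2 (8.14 on vehicle 2, 5.38 on CMPF 2) and Onecut2 (5.20 and 4.38). The part of the duct markers in the difference of Aldh1b1 was not tested.

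The 8 enzymes of amino acid, GABA, carnitine and one-carbon metabolism had a median difference of 0.00026, with 4 above 0 and 4 below. Aldh18a1, which makes the proline precursor pyrroline-5-carboxylate from glutamate, read 10.68, 10.58 and 10.55 with vehicle and 10.69, 10.49 and 10.53 with CMPF. Its difference was -0.037 (SE 0.0936), with an interval from -0.26 to 0.18. All of its 5 probe sets gave a difference below 0, from -0.11 to -0.018. Aldh1l2, the mitochondrial formyltetrahydrofolate dehydrogenase, read 10.34, 10.04 and 10.21 and then 10.28, 9.96 and 10.18, slightly lower with CMPF within each pair. Its difference was -0.056 (SE 0.123).

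Aldh1l1, the cytosolic form of that enzyme, read 6.05, 7.00 and 5.78 with vehicle and 6.28, 6.98 and 6.44 with CMPF. The arrays numbered 2 were highest, and vehicle 3 lowest. The difference was 0.29 (SE 0.326, or 0.135 with the block), and by pair it was 0.24, -0.021 and 0.66. A second, dim probe set of Aldh1l1 differed by -0.044, so its probe sets did not share a sign.

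Aldh9a1, which acts in carnitine and GABA synthesis, read 10.11, 10.30 and 10.54 with vehicle and 10.30, 10.11 and 10.66 with CMPF, a difference of 0.041 (SE 0.167). Pair 2 was at -0.19 on this probe set. A second bright probe set of Aldh9a1, at a mean of 9.57, differed by 0.12 and was higher in every pair, at 0.16, 0.14 and 0.067. Aldh5a1, which ends the breakdown of GABA as succinic semialdehyde dehydrogenase, read 8.62, 8.33 and 8.45 and then 8.89, 8.25 and 8.19. Its difference was -0.020 (SE 0.193), with pairs running from -0.26 to 0.27. Beta cells are known to make GABA. For Aldh7a1, of lysine breakdown, the 3 pairs lay between 0.071 and 0.17, with a mean difference of 0.12 (SE 0.131). For Aldh6a1, of valine breakdown, they lay between -0.11 and -0.049, with a mean of -0.083 (SE 0.0848). Aldh4a1, of proline breakdown, differed by 0.020 (SE 0.149).

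The fatty aldehyde enzymes lay near 0. Aldh3a2, which oxidises long-chain fatty aldehydes in the ER membrane, differed by 0.0082 (SE 0.0887), with an interval from -0.20 to 0.22. Aldh3b1 differed by -0.097 (SE 0.158) and Aldh3b2 by 0.055 (SE 0.0853). A pair of probe sets listed for both Aldh3b2 and Aldh3b3 had differences of 0.15 and 0.35, with overlapping groups, and cannot be given to either gene. Aldh16a1, whose enzyme activity is not settled, differed by 0.15 (SE 0.142), of which CMPF 2 gave most, with pair differences of 0.030, 0.40 and 0.019.

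Among the aldehyde and aldose reductases 4 of 5 were higher with CMPF in all 3 pairs, a count to set beside 11.8% of all genes. The acinar markers were so in 13 of 17, and their part in the count was not tested. Akr1b1 (Akr1b3) and Akr1b7 were also planned for this group but are not among the members, so the group lacks them. The count rests on the brightest probe set of each gene, and Akr1b8 has only 1. A dimmer probe set of Akr7a5, at a mean of 7.89, differed by 0.037 with pair 1 at -0.042. Its dimmest, at a mean of 3.48, was higher in every pair. The other set of Akr1e1, at a mean of 3.88, differed by 0.10 with pair 2 at -0.049. The other sets of Akr1b10, at means of 3.84 and 3.57, differed by -0.0064 and -0.085. Akr1b8, a reductase of lipid aldehydes and retinaldehyde, read 8.50, 9.04 and 8.53 on vehicle arrays 1 to 3 and 8.59, 9.32 and 9.04 on CMPF arrays 1 to 3. CMPF 2 was highest, CMPF 3 and vehicle 2 read alike, and the remaining arrays were lower, so the groups overlapped. Vehicle arrays averaged 8.69 ± 0.30 (SD, n = 3) and CMPF arrays 8.98 ± 0.37 (SD, n = 3). The difference was 0.29 (SE 0.217), with an interval from -0.22 to 0.80 and pair differences of 0.084, 0.28 and 0.51. With the block its standard error was 0.102, and limma's adjusted p was 0.979. It was 0.12 without CMPF 2 and 0.49 without CMPF 1.

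The promoter of Akr1b8 is shown because this gene had the largest difference among the reductases. It lies at chr6:34353896-34354145 on the plus strand of GRCm38.p6 (RefSeq), 250 bases before the start, with the TATAAA motif on the opposite strand in capitals.
Akr1b8: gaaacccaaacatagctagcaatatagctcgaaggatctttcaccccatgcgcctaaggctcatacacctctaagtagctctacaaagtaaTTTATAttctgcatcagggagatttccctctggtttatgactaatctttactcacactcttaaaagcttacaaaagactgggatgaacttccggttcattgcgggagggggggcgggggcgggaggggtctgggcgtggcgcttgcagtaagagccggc
Its window of 300 bases held no TGACNNNGC. It shared 60.7% of aligned bases with the window of Akr1b10, its neighbour on chromosome 6. No unrelated windows were aligned, so whether this exceeds their share is not known.

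Akr1b10, as the annotation names that neighbour, differed by 0.079 (SE 0.122), with pair differences of 0.058, 0.075 and 0.11. Akr7a5, which reduces succinic semialdehyde and toxic aldehydes, read 9.68, 9.73 and 9.49 with vehicle and 9.80, 9.89 and 9.53 with CMPF, a difference of 0.11 (SE 0.124). Akr1e1, a reductase of 1,5-anhydrofructose, differed by 0.11 (SE 0.140). Akr1a1, the general aldehyde reductase that also acts in ascorbate synthesis, was bright. It read 13.16, 13.12 and 13.07 with vehicle and 13.06, 12.98 and 13.14 with CMPF, a difference of -0.059 (SE 0.0853). Its 4 probe sets all gave differences below 0, and the interval ran from -0.26 to 0.14.

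The Akr1c genes, hydroxysteroid dehydrogenases clustered on chromosome 13, showed no shared direction, with 4 of 9 differences above 0, Akr1cl of chromosome 1 counted with them. Akr1c12 read 9.17, 9.14 and 8.92 with vehicle and 9.09, 8.95 and 8.86 with CMPF, lower within each pair, a difference of -0.11 (SE 0.107). Akr1c13, a close copy of it, read 9.64, 9.52 and 9.52 and then 9.78, 9.47 and 9.48, a difference of 0.016 (SE 0.111). A probe set listed for both genes differed by -0.10. Since copies this alike can share signal, values for either gene alone are uncertain. Akr1c14, a 3-alpha-hydroxysteroid dehydrogenase, read 9.11, 8.55 and 8.67 and then 8.97, 8.44 and 8.69, highest on the arrays numbered 1 in both groups. Its difference was -0.077 (SE 0.187, or 0.0793 with the block). Akr1c19 differed by -0.025 (SE 0.0972) and Akr1c18, which inactivates progesterone, by 0.048 (SE 0.181).

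The other Akr1c genes and Akr1d1, the 5-beta-reductase of bile acid synthesis, were dim. Akr1c6, Akr1c20, Akr1c21, Akr1cl and Akr1d1 all lay below the lower quartile of gene levels (4.53), with differences from -0.17 for Akr1cl to 0.16 for Akr1c20. Without detection calls, such levels cannot be told from an absent transcript. Of the other members, 8 lay between the lower quartile and the median and 21 above the median.

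**Figure D4:**
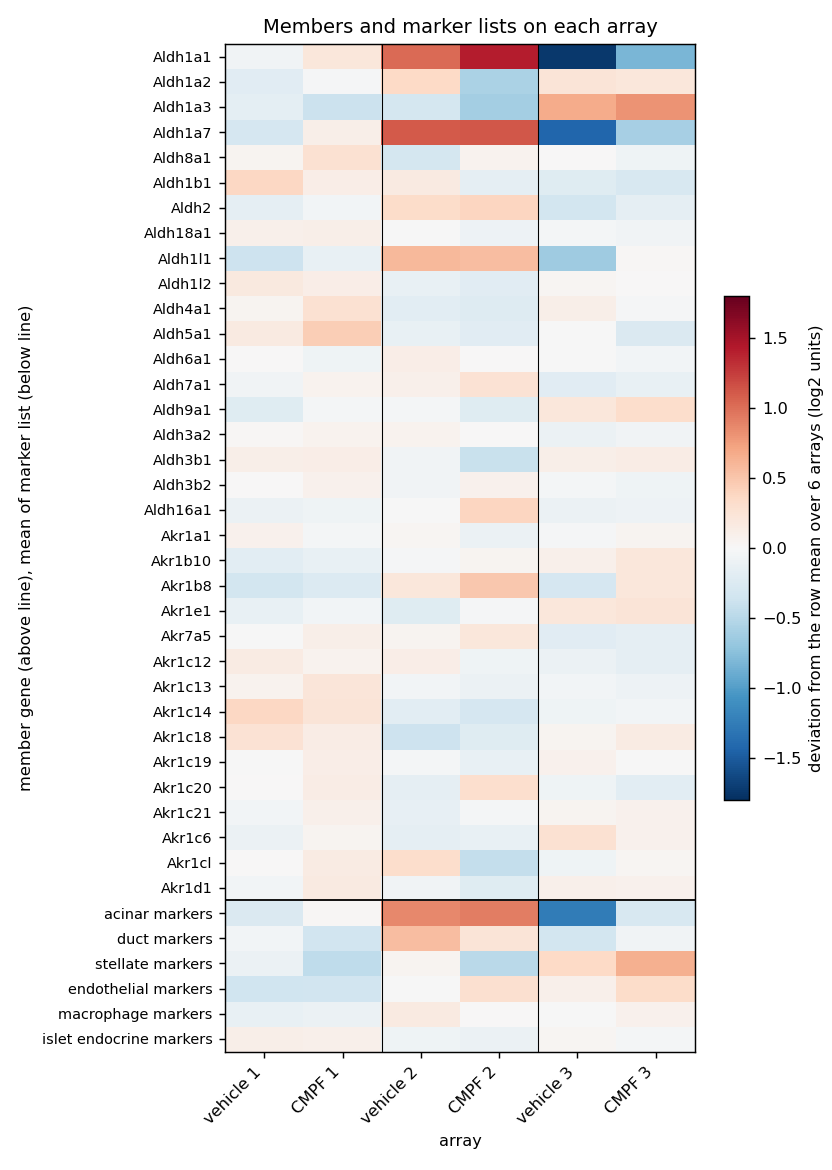
Deviation of each member from its own mean over the 6 arrays (colour, log2 units; arrays on the x axis ordered by pair), with the means of 6 marker lists below the line. Aldh1a1 and Aldh1a7 are high on both arrays numbered 2 and low on vehicle 3, as is the acinar marker row, and Aldh1a3 is high on both arrays numbered 3.

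Genes that work beside these enzymes were read from 4 lists, and limma called 0 genes of any of them, with or without the block. Over all genes, 50.7% of differences were above 0, and 11.8% were higher and 11.1% lower in all 3 pairs. NRF2 targets, to which several aldo-keto reductase genes are known to belong, had a median difference of 0.14 over 21 genes, 21 of them above 0 and 15 higher in all 3 pairs. Gsta2, a glutathione transferase, differed by 0.51 (SE 0.195), Gsta4 by 0.42 (SE 0.206), Nqo1, a quinone reductase, by 0.41 (SE 0.265) and Ugdh, which makes UDP-glucuronate, by 0.20 (SE 0.116). The groups did not overlap for 1 of the 21, Txnrd1, thioredoxin reductase, at 0.10 (SE 0.0846). Of all genes, 2.41% did not overlap with CMPF higher. This list ran from 0.010 to 0.51, a range that held Akr1b8, at 0.29, and most other members above 0. Lying within it therefore does not set Akr1b8 apart. The acinar marker mean was higher with CMPF in each pair as well, and its part in these values was not tested.

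Other alcohol and carbonyl oxidoreductases had a median of 0.018 over 18 genes, with 4 higher and 2 lower in all 3 pairs. Those of smallest p without the block were Hsd11b1, which activates glucocorticoids (-0.18, SE 0.136), Cbr2 (0.089, SE 0.0825), Khk, ketohexokinase (0.10, SE 0.107), and Cbr3, a carbonyl reductase (0.12, SE 0.129). Khk is a kinase and not an oxidoreductase, but it was on the list and is counted with it. Ptgr1, a reductase of lipid enals and prostaglandins, was singled out after its values were seen. It had the largest difference of this list, 0.33 (SE 0.366, or 0.0795 with the block), and was higher in all 3 pairs. For Cbr2, a carbonyl reductase known from lung, the groups did not overlap, as for 2.41% of all genes with CMPF higher. It was dim, at a mean of 3.56. Genes that carry, make or sense retinoids had a median of -0.013 over 24 genes, with 2 higher and 1 lower in all 3 pairs. Rarg, a retinoic acid receptor, differed by -0.14 (SE 0.116), Rdh16, a retinol dehydrogenase, by 0.14 (SE 0.123), Stra6, a receptor for retinol uptake, by 0.10 (SE 0.0912), and Rdh11, a retinal reductase, by -0.13 (SE 0.122).

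Partners in amino acid and one-carbon metabolism had a median of 0.0012 over 22 genes, with 4 higher and 3 lower in all 3 pairs. Aass, which precedes Aldh7a1 in lysine breakdown, differed by -0.33 (SE 0.260), while Aldh7a1 differed by 0.12. Prodh, the first enzyme of proline breakdown, differed by 0.11 (SE 0.0854), Bckdha, of branched-chain amino acid breakdown, by 0.14 (SE 0.129), and Gldc, of glycine cleavage, by 0.098 (SE 0.0901).

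**Figure D5:**
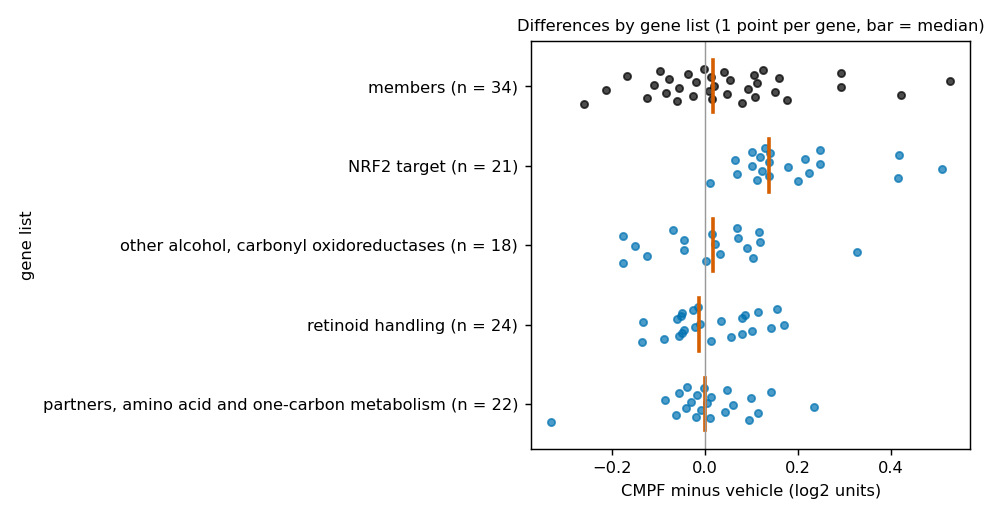
Difference between CMPF and vehicle (x axis, log2 units) for each gene of the members and of 4 related lists (y axis). Bars are medians, 0.14 for the NRF2 targets and 0.018 for the members.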

How the data were processed

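Expression was measured on 6 Affymetrix mouse 3' arrays, 3 per group. The deposited values are log2 signals; RMA and Affymetrix Expression Console 1.1 are the tools that the submitters' processing notes name for the authors' work. RMA forces all arrays to 1 distribution and compresses differences of dim genes. No source used here gives further settings. The 6 array medians lay between 5.08 and 5.15. The number of arrays limits the precision, and the values hold no detection calls.

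Of 45101 probe sets, 64 controls were left out; 34945 of the rest listed 1 gene, 932 several and 9160 none. Entrez IDs linked 34741 of the single-gene sets to RefSeq (GRCm38.p6), which changed 0 symbols. The single-gene probe set of highest mean stood for each of 18193 genes, so the 34 members rest on 34 of their 61 single-gene probe sets. Brightness of different probe sets does not rank transcripts. 

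The difference between CMPF and vehicle was fitted on every gene with limma 3.58.1 (lmFit and eBayes, R 4.3.3). The 2-sided p-values were adjusted by Benjamini-Hochberg over all genes. The steps were tested on simulated data that drew each array independently, without a spread shared within pairs, so that test does not cover the pairing. Replicates may be technical, and p-values then cover only that spread. Standard errors are from the fit without the replicate block unless stated. Deviations from the group mean correlated at 0.488 to 0.638 for arrays of the same number and at -0.555 to 0.0885 otherwise, so the numbers were taken to pair the arrays, from the data and not from the labels. Promoters, for 28 of 34 members, came from RefSeq and were aligned globally with Biopython 1.88. Bases set against gaps were left out of the percentages of identical bases, and no unrelated windows were aligned for comparison.

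Values per array are given for members past the threshold, or with no overlap, or of 1 direction in all 3 pairs with an unadjusted p under 0.1 in either fit, and for the 10 brightest; from each list the 4 genes of smallest p are named. Others named were chosen after their values were seen. The members and lists were chosen with earlier results of these data known. Alternatives were the block, array weights, 2 scalings, 2 choices of probe set, 2 filters on dim genes and leaving out each array or pair. Background correction could not be varied on these values.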

Additional observations from a re-analysis of the deposited data

How the results depend on the processing

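No setting tried brought a member or any other gene past the threshold, the replicate block and leaving out each array or pair included. The median over the members was 0.018, and the replicate block could not change it, since each pair holds 1 array of each group. It ran from -0.034 without pair 1 to 0.056 without pair 3. It was also below 0 without vehicle 2 (-0.0075) and without CMPF 1 (-0.016). With plain probe sets only (suffix _at, which 32 members have), 7 members instead of 4 were lower in all 3 pairs. The count of members higher in all 3 pairs, 10, was 7 with a second quantile normalization and with the mean of probe sets. Akr1c13 turned to -0.018 with array weights. Leaving out an array or pair turned the sign of 8 of the 13 members chosen by rule. The ranges were -0.21 to 1.17 for Aldh1a1, -0.19 to 1.07 for Aldh1a7, -0.086 to 0.070 for Akr1c13, -0.21 to 0.091 for Akr1c14, -0.097 to 0.0029 for Aldh18a1, -0.13 to 0.035 for Aldh1l2, -0.24 to 0.11 for Aldh5a1 and -0.11 to 0.16 for Aldh9a1. Akr1b8 (0.12 to 0.49), Aldh1b1 (-0.37 to -0.079), Akr1a1 (-0.12 to -0.019), Akr1c12 (-0.19 to -0.056) and Akr7a5 (0.031 to 0.21) kept their sign under each setting that gave them a value. Under some of these settings the sign could not turn. The block could not change any difference. Leaving out a pair could not turn Akr1b8, Aldh1b1, Akr1c12 or Akr7a5, which had 1 direction in all 3 pairs. Akr1b8, Aldh1b1 and Akr1c12 have 1 single-gene probe set each, so the choice of probe set could not change their values. Akr1a1 and Aldh9a1 have no plain probe set, and the 2 filters on dim genes were run on counts and medians only. Leaving out 1 array leaves its pair in 1 group only, so the spread between pairs then enters the difference. For Aldh1a1 the pair means were 7.09, 8.24 and 5.75, while the difference was above 0 in each pair. The part of that spread in each shift was not tested.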
